A study of Mus musculus with 20 samples.

Results

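The genes described are 10 that mark the endothelial cells of brain vessels, namely Cldn5, Cdh5, Pecam1, Vwf, Ly6a, Ly6c1, Flt1, Tek, Slco1a4 and Abcb1a. The rule that lists them by name uses no measured value, and they are 10 of 55487 gene entries in the count tables. The libraries come from 4 groups of 5: hippocampus with YB-1, hippocampus with HSP70, cortex with YB-1 and cortex with HSP70. All mice were of the NMRI stock, an outbred laboratory stock, and all had undergone olfactory bulbectomy, the surgical removal of the olfactory bulbs, which is used in rodents to model features of Alzheimer's disease. From day 14 after surgery each mouse was given a protein through the nose daily for 21 days, either 6.4 µg of recombinant YB-1, a cold shock protein that binds DNA and RNA, or 4 µg of human recombinant HSP70, the stress-inducible chaperone. Both groups of every treatment comparison therefore carry the surgery and a protein, and the proteins differ in dose. The labels state neither the age of the animals nor which animal gave each library, so p-values measure the spread between these libraries.

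Endothelial cells of the brain form the blood-brain barrier. Tight junctions seal neighbouring cells, transporters at the cell surface take up or expel solutes, and receptors for vascular growth factors and angiopoietins maintain the vessel. In tissue homogenates such as these, endothelial transcripts are diluted among those of neurons and glia, and a lower value from fewer endothelial cells cannot be told apart from one with less RNA per cell.

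The RNA was poly(A)-selected and sequenced from 1 end. Reads assigned to genes ranged from 7236195 to 10166968 in the hippocampus with YB-1, from 7756835 to 13053910 in the hippocampus with HSP70, from 6414215 to 10763465 in the cortex with YB-1 and from 12283392 to 15148078 in the cortex with HSP70. The 2 treatments thus did not overlap in depth in the cortex. The tissue labels were checked on genes picked for this purpose after the values were seen: Prox1, a marker of dentate granule neurons, was higher in the hippocampus by 2.63 with YB-1 and 2.16 with HSP70 on the log2 scale, and Cux2, a marker of upper cortical layers, was at -1.97 and -1.78. Levels are given as CPM, the reads of a gene per total reads of its library after scaling by the trimmed mean of M-values (TMM), and log2 fold changes as fitted by edgeR's quasi-likelihood test, with a standard error (SE).

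All 10 genes had reads in all 20 libraries and passed the filter on low counts in each comparison. Per kilobase of exon, Ly6a, which encodes a surface antigen also known as Sca-1, was the most abundant, at 109 ± 24.2 CPM per kilobase in the hippocampus with YB-1, 68.8 ± 21.3 in the hippocampus with HSP70, 136 ± 46.5 in the cortex with YB-1 and 94.3 ± 18.3 in the cortex with HSP70 (SD, n = 5 each). Cldn5, the claudin that seals the tight junctions of the barrier, came next, with means from 42.8 to 54.0 CPM per kilobase, followed by Ly6c1, a related surface antigen, with means from 24.6 to 35.1. The ranges of Ly6a and Cldn5 were separate with YB-1 in both tissues and overlapped with HSP70 in both. Pecam1, the adhesion molecule CD31, followed these 3 in all 4 groups, at 3.54 to 4.85 CPM per kilobase, and did not overlap with Ly6c1 in any group. From Pecam1 down, each gene overlapped with the next in every group, to Abcb1a, the drug efflux pump P-glycoprotein, with the lowest means of the list at 0.900 to 1.46 CPM per kilobase.

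**Figure D1:**
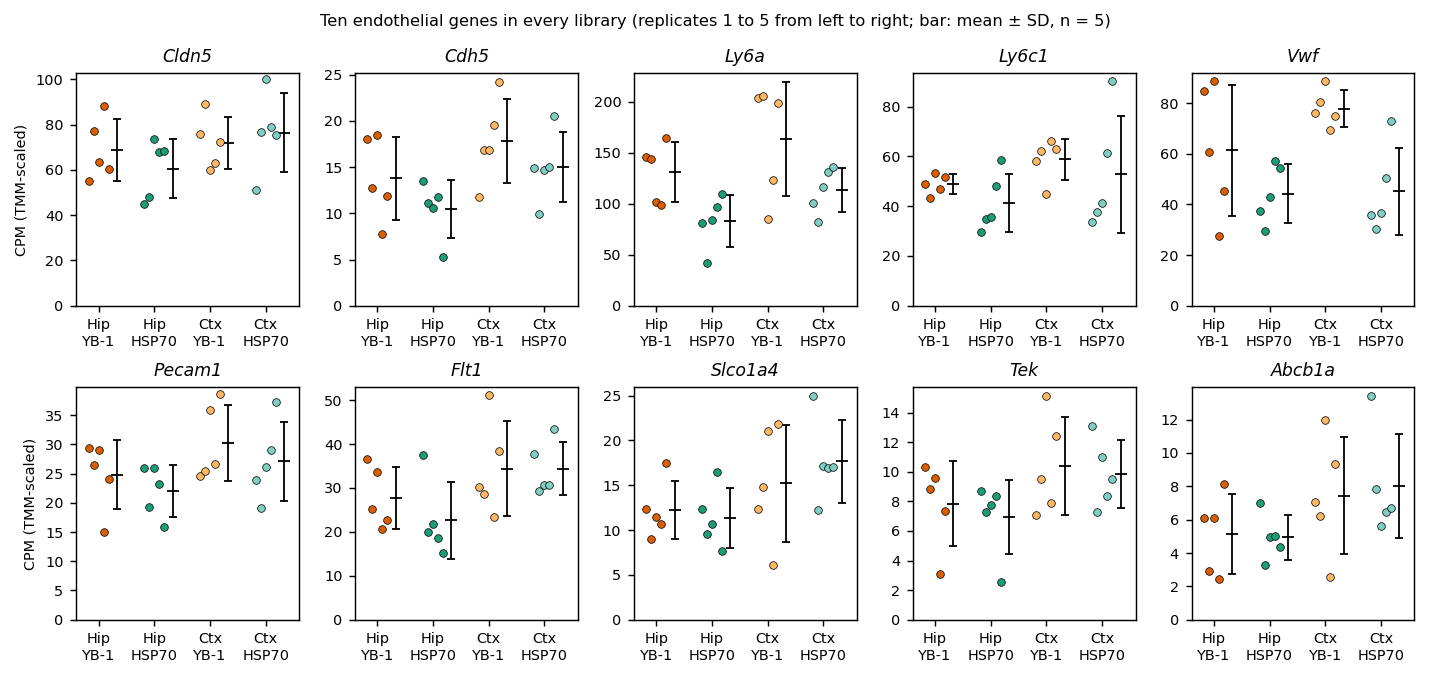
Levels of the 10 endothelial genes in every library. Each point is the TMM-scaled CPM of 1 library on a linear axis from 0, in the order hippocampus (Hip) with YB-1, hippocampus with HSP70, cortex (Ctx) with YB-1 and cortex with HSP70, and the bar beside the points is the mean ± SD (n = 5). For every gene the treatments overlap within each tissue, and the tissues within each treatment. Between treatments Vwf in the cortex comes closest to a separation, with 4 of 5 YB-1 libraries above the highest HSP70 library.

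Of these genes some are read from sequence they share with relatives. Of the 50-base windows of Ly6c1's transcripts, 32.8% also occur in transcripts of Ly6a, Ly6c2 or Ly6i, and of those of Ly6a 19% occur in Ly6c1, Ly6c2, Ly6i or I830127L07Rik. Abcb1a shares 22.5% of its windows with Abcb1b, Abcb4 or Gm42686, and 10.1% of its exon bases lie opposite Gm42686, which had 0 or 1 read per library. For these 3 genes the assignment of reads between copies is uncertain. The share was at most 1.61% for the other 7, and 0 for Cldn5, Cdh5 and Tek.

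The promoters below are shown for genes whose levels moved together or apart between libraries, as described further on. Slco1a4 and Abcb1a, both transporters, varied together, while Cldn5 and Flt1, the receptor VEGFR1, varied in opposite directions. Each sequence holds 250 bases before and 50 bases after the annotated start, 5′ to 3′ on the gene's strand, from RefSeq on GRCm38.p6, an earlier assembly than the GRCm39 of the counts. RefSeq entries matched 6 of the 10 genes by symbol, all but Cdh5, Ly6a, Vwf and Pecam1.
Cldn5 (chr16:18776597-18776896, plus strand): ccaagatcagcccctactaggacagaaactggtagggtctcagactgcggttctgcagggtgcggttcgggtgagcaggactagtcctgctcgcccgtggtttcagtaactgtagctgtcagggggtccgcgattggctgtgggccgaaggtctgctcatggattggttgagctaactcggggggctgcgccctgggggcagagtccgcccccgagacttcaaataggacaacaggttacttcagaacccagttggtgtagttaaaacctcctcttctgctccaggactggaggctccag
Flt1 (chr5:147725962-147726261, minus strand): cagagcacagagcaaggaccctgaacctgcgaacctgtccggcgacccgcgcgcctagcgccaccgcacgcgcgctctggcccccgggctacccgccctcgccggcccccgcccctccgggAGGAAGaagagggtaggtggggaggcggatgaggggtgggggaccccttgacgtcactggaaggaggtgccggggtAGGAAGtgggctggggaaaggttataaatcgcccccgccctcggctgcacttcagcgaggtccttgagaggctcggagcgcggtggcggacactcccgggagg
Slco1a4 (chr6:141856171-141856470, minus strand): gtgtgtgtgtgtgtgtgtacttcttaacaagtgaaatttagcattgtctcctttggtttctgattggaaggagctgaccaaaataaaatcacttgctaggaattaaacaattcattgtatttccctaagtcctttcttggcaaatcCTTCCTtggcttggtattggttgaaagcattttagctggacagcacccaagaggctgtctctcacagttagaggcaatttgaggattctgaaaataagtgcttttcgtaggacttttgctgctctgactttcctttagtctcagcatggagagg
Abcb1a (chr5:8566841-8567140, plus strand): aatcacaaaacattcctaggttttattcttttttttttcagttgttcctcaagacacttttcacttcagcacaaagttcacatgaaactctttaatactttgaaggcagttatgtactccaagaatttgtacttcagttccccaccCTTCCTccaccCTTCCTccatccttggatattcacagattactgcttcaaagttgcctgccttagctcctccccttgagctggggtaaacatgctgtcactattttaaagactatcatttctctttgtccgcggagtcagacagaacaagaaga
Capitals mark AGGAAG, a core with flanks that ETS factors bind, or its reverse complement CTTCCT. It occurred 2 times in Flt1, 1 time in Slco1a4, 2 times in Abcb1a and 0 times in Cldn5, and on either strand in 35.4% of all 32851 promoters of this length. In promoters not shown it occurred 0 times in Tek, and 0 and 3 times in the 2 entries of Ly6c1. A link of this pattern to the variation between libraries was not tested. Among the 4 shown, the letters TATAAA of a TATA box were found 1 time, in Flt1, and did not overlap AGGAAG. They occur in 13.6% of all promoters. The interferon-linked patterns TTCNNNGAA and the core of the interferon-stimulated response element, which occur in 8.3% and 3.44% of all promoters on either strand, were in none of the 4.

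In the hippocampus, no endothelial gene passed the test of YB-1 against HSP70 across all genes. All 10 had a positive log2 fold change, between 0.06 for Abcb1a and 0.66 for Ly6a, with a median of 0.22, while 49.3% of the 13723 genes tested were positive, with a median of -0.003. The number with an adjusted p under 0.05 was 0 of 10 by edgeR's quasi-likelihood test, and 0.0% of all genes passed. At an unadjusted p under 0.05 the test had 1 of the 10, Ly6a, and 329 genes in all (2.4%), and neither DESeq2 nor limma-voom called a gene, with 390 and 729 at an unadjusted p under 0.05. With 1 library left out, between 8 and 10 of the 10 were positive.

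In the cortex 7 of the 10 genes had a positive log2 fold change, with a median of 0.12, against 50.9% and 0.005 for the 14114 genes tested. Again 0 of 10 passed by edgeR's quasi-likelihood test, and 0.0% of all genes. Vwf and Ly6a were the 2 members at an unadjusted p under 0.05, where the test had 774 genes (5.48%). DESeq2 called 4 genes and limma-voom 1, with 844 and 1003 at an unadjusted p under 0.05, none of them called being one of the 10. No gene of the list had groups that did not overlap in either tissue, as was the case for 0.474% of all genes in the hippocampus and 0.829% in the cortex. With 1 cortical library left out, between 5 and 8 of the 10 were positive.

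**Figure D2:**
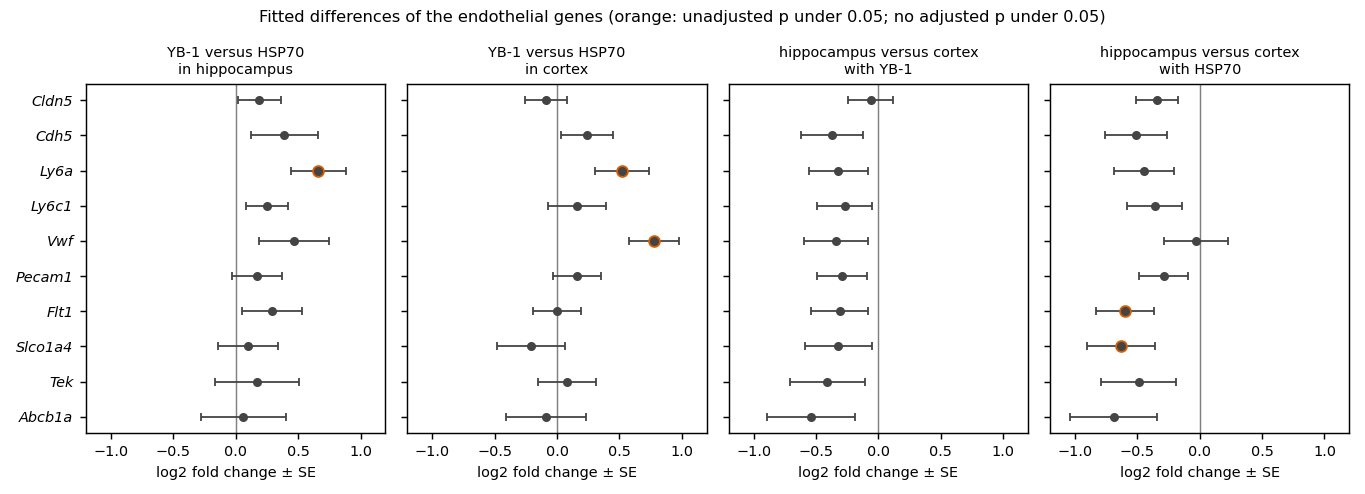
Fitted differences of the 10 genes in 4 comparisons. Points are log2 fold changes (YB-1 over HSP70 in the left pair of panels, hippocampus over cortex in the right pair), bars are ± 1 SE, and orange rings mark an unadjusted p under 0.05. In the hippocampus all 10 points lie on the YB-1 side, and in both tissue comparisons all 10 lie on the cortical side (Vwf with HSP70 turns to 0.02 with library totals). No gene passed after adjustment in these fits.

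Ly6a was the gene of the list with the largest positive log2 fold change in the hippocampus. Its hippocampal levels were 146, 144, 102, 99.1 and 165 CPM in the YB-1 libraries 1 to 5, against 81.2, 42.0, 84.2, 97.2 and 110 CPM in the HSP70 libraries 1 to 5. Cortical levels were 204, 206, 85.2, 123 and 199 CPM with YB-1, against 101, 82.6, 117, 131 and 136 CPM with HSP70. In each tissue 3 of the 5 YB-1 libraries stood above all HSP70 libraries, and YB-1 replicates 3 and 4 were the lowest YB-1 libraries in both tissues. In the hippocampus the log2 fold change was 0.66 ± 0.22 (SE), with an adjusted p of 1 by edgeR's quasi-likelihood test and an unadjusted p of 0.00925. In the cortex it was 0.52 ± 0.22, with an adjusted p of 0.858 and an unadjusted p of 0.0276. Over 9 other settings Ly6a lay between 0.65 and 0.85 in the hippocampus and between 0.47 and 0.53 in the cortex, and did not pass in any of them.

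Interferon-stimulated genes moved with Ly6a. After removal of each group's mean, the deviations of Ly6a over the 20 libraries correlated with the mean of 24 such genes at r = 0.72, and those of the other 9 members at r between -0.10 and 0.50; libraries share depth, and same-numbered ones may share an animal. The summed level of the interferon list was 1200 to 2560 CPM in the hippocampus with YB-1 against 850 to 1560 CPM with HSP70, and 1070 to 2810 CPM in the cortex with YB-1 against 1070 to 1660 CPM with HSP70. In the hippocampus 23 of the 23 tested members were positive, with a median log2 fold change of 0.71, and in the cortex 23 of 24, with a median of 0.53. None of them passed by edgeR's quasi-likelihood test. An unadjusted p under 0.05 was found for 13 and 7 of them, and for 2.4% and 5.48% of all genes. Microglia markers were positive in 8 of 9 genes in each tissue, with medians of 0.19 and 0.22, and correlated with Ly6a at r = 0.36; their part, like that of the interferon list, was not tested. Among genes that are not on the list and average at least 5 CPM (10621 genes), those whose deviations were among the most like Ly6a's were Ctsz (r = 0.90), a lysosomal protease, Tap1 (0.89), a peptide transporter of antigen presentation that is on the interferon list, Mvp (0.89), the major vault protein, and Ifitm3 (0.89), an interferon-induced membrane protein that is on it too.

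Ly6c1, whose transcripts resemble those of Ly6a, spread little in the hippocampus with YB-1, from 43.5 to 53.2 CPM, against 29.5 to 58.5 CPM with HSP70. Cortical values ran between 45.0 and 66.1 CPM with YB-1, against 33.5 to 90.4 CPM with HSP70. The YB-1 range lay inside the HSP70 range in both tissues, and the log2 fold changes were 0.25 ± 0.17 and 0.16 ± 0.23. Ly6c2, a neighbour in the same cluster that is known from monocytes and was named after its values were seen, ranged more widely, from 4.01 to 85.8 CPM. Its median was 60.8 CPM in the hippocampus with YB-1 against 15.7 CPM with HSP70, and 59.0 CPM in the cortex with YB-1 against 35.3 CPM with HSP70. Its log2 fold changes were 1.49 ± 0.64 (hippocampus) and 0.84 ± 0.56 (cortex), with adjusted p of 1 and 0.875 by edgeR's quasi-likelihood test. The deviations of Ly6c1 and Ly6c2 over the 20 libraries correlated at r = -0.17.

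Vwf encodes von Willebrand factor, the clotting protein that endothelial cells store and release, and which platelets also carry. Its cortical levels were 75.9, 80.3, 88.6, 69.4 and 74.9 CPM in the YB-1 libraries 1 to 5, against 35.8, 30.3, 36.6, 50.4 and 73.0 CPM in the HSP70 libraries 1 to 5. All YB-1 libraries except replicate 4 stood above the highest HSP70 library, replicate 5. The log2 fold change was 0.78 ± 0.20 (SE), or 1.72-fold, with an unadjusted p of 0.000877 and an adjusted p of 0.858 by edgeR's quasi-likelihood test. When genes with few counts were kept in the test, the adjusted p of edgeR was 0.0232, and 9 genes passed (0.0333% of those tested), 6 of them as higher (0.0222%), Vwf among these. Over the 9 other settings, thinning all libraries to 6414215 reads among them, the log2 fold change was 0.75 to 0.85 and the adjusted p ranged from 0.0232 to 0.954, and without HSP70 replicate 5 the log2 fold change was 1.02 with an adjusted p of 0.101.

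Hippocampal Vwf was at 84.6, 60.7, 88.7, 27.6 and 45.4 CPM with YB-1, against 37.3, 29.5, 43.0, 57.1 and 54.5 CPM with HSP70. Here the YB-1 libraries lay on both sides of the HSP70 range, 3 above it and 1 below it, and the log2 fold change was 0.47 ± 0.28. Blood cell markers, a list of red cell and leukocyte genes, had medians of -0.42 (hippocampus) and -0.40 (cortex) over 7 tested genes, with 3 of 7 positive in each. Their mean correlated with Vwf at r = 0.17 over the 20 libraries. The list holds no platelet marker, and the part of platelets in Vwf was not tested. The genes most like Vwf in their deviations, looked up after its values were seen, were Klhdc7a (r = 0.87), Pcsk6 (0.86), Ezr (0.85), Tns1 (0.84) and Tmem151b (0.84).

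None of the junction genes had an unadjusted p under 0.05 between treatments. Cldn5 was at 55.0, 77.3, 63.7, 88.4 and 60.4 CPM in the hippocampus with YB-1, against 45.1, 47.9, 73.5, 68.0 and 68.5 CPM with HSP70. Its cortical levels were 76.0, 89.0, 59.8, 63.0 and 72.3 CPM with YB-1, against 51.3, 76.9, 79.0 and 75.5 CPM in the HSP70 libraries 1, 2, 4 and 5, and HSP70 replicate 3 was the highest of all 20 libraries. In the hippocampus 2 of the 5 YB-1 libraries stood above the HSP70 range, with a log2 fold change of 0.19 (95% interval -0.15 to 0.53), and in the cortex all 5 lay within it, with -0.09 (-0.42 to 0.24). Cdh5, the cadherin of endothelial adherens junctions, lay at 7.72 to 18.5 CPM in the hippocampus with YB-1 against 5.26 to 13.5 CPM with HSP70, and at 11.8 to 24.2 CPM in the cortex with YB-1 against 9.93 to 20.5 CPM with HSP70. Its log2 fold changes were 0.39 ± 0.27 and 0.24 ± 0.21. Pecam1, which leukocytes and platelets also carry, lay at 15.0 to 29.3 CPM with YB-1 against 15.9 to 26.0 CPM with HSP70 in the hippocampus, and at 24.6 to 38.6 CPM with YB-1 against 19.1 to 37.2 CPM with HSP70 in the cortex. Its log2 fold changes were 0.17 ± 0.20 and 0.16 ± 0.19.

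The growth factor receptors showed no treatment difference that these libraries could resolve. Flt1, which binds VEGF and placental growth factor, had a hippocampal log2 fold change of 0.29 (95% interval -0.17 to 0.76) and a cortical one of 0.00 (-0.37 to 0.38). Tek, the angiopoietin receptor TIE2, had 0.17 (-0.50 to 0.83) in the hippocampus and 0.08 (-0.38 to 0.53) in the cortex. Tek was at 2.55 CPM in HSP70 replicate 5 of the hippocampus, where the other 4 HSP70 libraries held 7.31 to 8.70 CPM, and without that library its log2 fold change was -0.04.

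Neither transporter passed the test. Slco1a4, an organic anion transporter of the barrier, had a hippocampal log2 fold change of 0.10 (95% interval -0.36 to 0.57) and a cortical one of -0.21 (-0.73 to 0.32). Abcb1a had 0.06 (-0.59 to 0.72) and -0.09 (-0.71 to 0.54). The interval of Abcb1a, with 14 to 193 reads per library, was the widest of the list in the cortex, and its sign in each tissue turned under another setting.

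The treatment differences of the 2 tissues were then compared with each other. For 9 of the 10 genes the log2 fold change was larger in the hippocampus, with a median difference of 0.14, while 48.6% of the 14616 genes tested were positive. By edgeR's quasi-likelihood test of this interaction 0 of 10 passed, as did 0.0% of all genes, with 227 genes (1.55%) and none of the 10 at an unadjusted p under 0.05. DESeq2 and limma-voom called 0 genes, with 276 and 316 at an unadjusted p under 0.05. The largest differences were 0.30 ± 0.38 for Slco1a4, 0.29 ± 0.32 for Flt1 and -0.31 ± 0.37 for Vwf, the only gene of the 10 on the negative side in this fit; with library totals Pecam1 joined it.

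Between the tissues all 10 genes had a negative log2 fold change, hippocampus over cortex, with either treatment. The median log2 fold change was -0.32 with YB-1, from -0.54 for Abcb1a to -0.06 for Cldn5, and -0.47 with HSP70, from -0.69 for Abcb1a to -0.03 for Vwf, which turned to 0.02 when libraries were scaled by their totals alone. Over all 14616 genes tested the medians were 0.002 and 0.006, with 50.3% and 50.7% positive. By edgeR's quasi-likelihood test, which took the libraries as independent, 0 of 10 passed with YB-1, where 6.51% of all genes passed (3.21% as lower), and 0 of 10 with HSP70, where 8.61% passed (3.76% as lower). At an unadjusted p under 0.05 there were 0 of the 10 with YB-1 (16.7% of all genes) and 2 with HSP70, Flt1 and Slco1a4 (20.1%). The ranges of the tissues overlapped for all 10 genes, while 6.43% of all genes with YB-1 and 8.75% with HSP70 had ranges that did not.

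Libraries with the same number from the 2 tissues of a treatment deviated together, though the labels do not say that the number marks an animal. The number was therefore also entered as a block. Then 2 of the 10 passed with HSP70, Ly6a and Flt1, both lower in the hippocampus, and 12.2% of all genes passed, 6.02% as lower. With YB-1, 0 of 10 passed under the block, and 8.37% of all genes, 4.14% as lower. With HSP70, the hippocampal library was the lower of its pair in all 5 pairs for Cldn5, Ly6a, Ly6c1, Flt1, Slco1a4 and Abcb1a, as for 12.2% of all genes. With YB-1 the same held for Abcb1a alone, and for 8.27% of all genes.

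**Figure D3:**
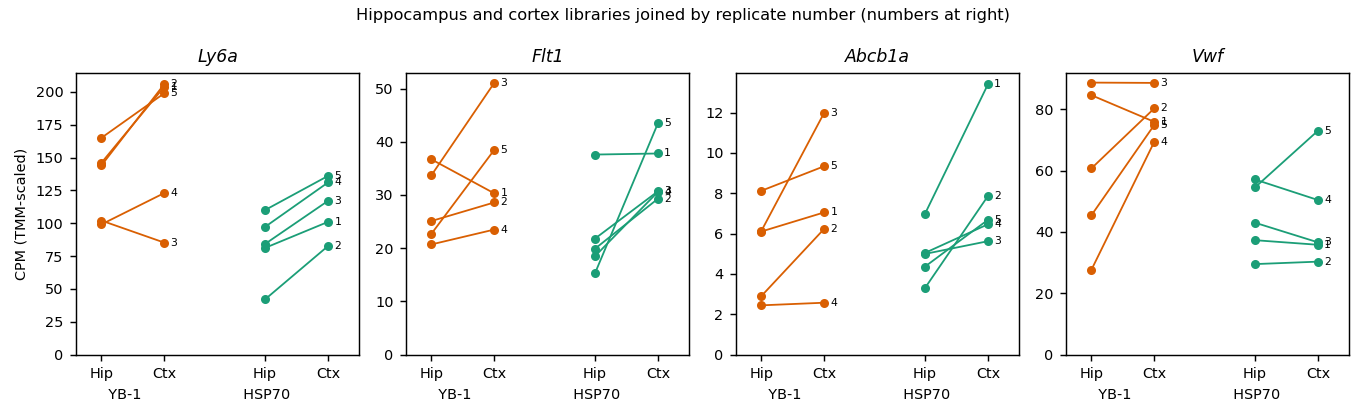
Levels of Ly6a, Flt1, Abcb1a and Vwf in hippocampus (Hip) and cortex (Ctx), joined by replicate number within a treatment. The vertical axis is TMM-scaled CPM from 0, orange lines are YB-1 and green lines HSP70, and the digits at the right are replicate numbers. With HSP70 all 5 lines of Ly6a, Flt1 and Abcb1a climb toward the cortex, while those of Vwf go both ways.

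Ly6a with HSP70 was at 83.0 ± 25.6 CPM in the hippocampus and 114 ± 22 CPM in the cortex (SD, n = 5 each). The difference within a pair was between -0.97 and -0.30 on the log2 scale. The log2 fold change was -0.45 ± 0.24 (SE) with an adjusted p of 0.309 by edgeR's quasi-likelihood test. With the replicate number as a block it was -0.50 ± 0.13, with an adjusted p of 0.0134 by the same test. Over 9 other settings the adjusted p ran from 0.0134 to 0.419. When 1 replicate number at a time was left out of the blocked edgeR fit, 4 of 5 fits kept an adjusted p under 0.05. The range was 0.0184 to 0.0713. With YB-1 the hippocampal value was lower in 4 of 5 pairs, at -0.32 ± 0.24.

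Flt1 had the smallest p of the 10 between the tissues with HSP70. With HSP70 it was at 37.6, 19.9, 21.8, 18.5 and 15.3 CPM in hippocampal libraries 1 to 5, against 37.8, 29.3, 30.7, 30.6 and 43.5 CPM in the cortical libraries of the same numbers. All hippocampal libraries except replicate 1 lay below the lowest cortical library, and replicate 1 was nearly level with its cortical partner. The log2 fold change was -0.60 ± 0.23 (SE) with an adjusted p of 0.114 by edgeR's quasi-likelihood test, and -0.64 ± 0.18 with an adjusted p of 0.0205 under the block. Over 9 other settings the adjusted p lay between 0.0205 and 0.342. The call rested on single replicate numbers: 3 of the 5 blocked edgeR fits with 1 number left out had an adjusted p under 0.05 (0.00909 to 0.124). Without hippocampal replicate 1 the unblocked log2 fold change was -0.86, with an adjusted p of 0.00906 by edgeR.

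With YB-1, Flt1 was at 36.7, 25.1, 33.7, 20.7 and 22.7 CPM in the hippocampus, against 30.3, 28.6, 51.1, 23.5 and 38.5 CPM in the cortex. The hippocampal value was lower in 4 of 5 pairs, with a log2 fold change of -0.31 ± 0.23. Tek, the other receptor, was at -0.41 ± 0.30 with YB-1 and -0.49 ± 0.30 with HSP70.

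Both transporters had the lower value in the hippocampus in each HSP70 pair. Slco1a4 was at 12.3, 9.55, 10.7, 16.5 and 7.66 CPM in the hippocampus with HSP70, against 25.0, 12.2, 17.2, 16.9 and 17.0 CPM in the cortex. Here 3 of the 5 hippocampal libraries lay below all cortical ones. The log2 fold change was -0.63 ± 0.27 (SE), with an adjusted p of 0.178 by edgeR's quasi-likelihood test and of 0.0512 under the block (0.0512 to 0.357 over 9 other settings). Of the 5 blocked edgeR fits with 1 replicate number left out, 1 had an adjusted p under 0.05 (0.0348 to 0.208). Abcb1a was at 6.98, 3.30, 4.99, 5.04 and 4.36 CPM in the hippocampus with HSP70, against 13.4, 7.86, 5.62, 6.46 and 6.68 CPM in the cortex, where replicate 1 stood far above the others. Its log2 fold change was -0.69 ± 0.35, with an adjusted p of 0.269 and, by edgeR with the block, of 0.0647 (0.0647 to 0.42 over 9 other settings). With YB-1 these log2 fold changes were -0.32 ± 0.27 for Slco1a4 and -0.54 ± 0.35 for Abcb1a.

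None of the junction genes, Ly6c1 and Vwf passed between the tissues, with or without the replicate block. Cldn5 was at -0.06 ± 0.18 with YB-1 and -0.34 ± 0.17 with HSP70, Cdh5 at -0.37 ± 0.25 and -0.51 ± 0.25, Pecam1 at -0.29 ± 0.20 and -0.29 ± 0.20, and Ly6c1 at -0.27 ± 0.22 and -0.36 ± 0.22. Vwf was at -0.34 ± 0.26 with YB-1 and at -0.03 ± 0.26 with HSP70, where the sign changed under the block (0.0031) and with plain library totals (0.02). These contrasts share their spread estimate, and the difference between them is the interaction given above.

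Lists of other genes of brain endothelium, 73 in all, were read beside the 10. Between treatments 43 of 67 tested genes were positive in the hippocampus (median 0.10) and 40 of 69 in the cortex (median 0.04), and 0 passed by edgeR's quasi-likelihood test. Of all genes tested, 2.4% and 5.48% had an unadjusted p under 0.05, against 2 and 5 genes of these lists. In the hippocampus those with the smallest p were Slc38a5, a glutamine transporter, at 0.53 ± 0.22, Mfsd2a, the lysolipid transporter that restrains transcytosis, at -0.40 ± 0.18, Slco2b1, an organic anion transporter, at 0.29 ± 0.15, and Icam1, an adhesion molecule for leukocytes, at 0.66 ± 0.35. In the cortex they were Tfrc, the transferrin receptor, at -0.75 ± 0.23, and Icam1 at 0.73 ± 0.24. Next came Calcrl, the receptor for CGRP and adrenomedullin, at -1.34 ± 0.49, and Hey1, a Notch target of arterial cells, at -0.33 ± 0.14. Calcrl had few reads, at 0 to 1.23 CPM in the cortex with YB-1 against 1.16 to 2.91 CPM with HSP70. Of the 7 lists, the transcription factors had the highest median in the hippocampus, 0.19, and the activated and venous genes the highest in the cortex, 0.22. For the interaction the smallest p belonged to Lef1 (0.82 ± 0.56), Hey1 (0.28 ± 0.19), Foxq1 (0.64 ± 0.47) and Calcrl (1.22 ± 0.98). Group means were 1.66 to 2.96 CPM for Lef1, 36.0 to 46.7 for Hey1, 1.99 to 3.21 for Foxq1 and 0.638 to 1.74 for Calcrl.

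Between tissues 48 of 69 of these genes had a negative log2 fold change, hippocampus over cortex, with YB-1 (median -0.11) and 48 of 69 with HSP70 (median -0.12). The transporters had 11 of 13 on that side with either treatment, with medians of -0.12 and -0.18. With YB-1 1 of 69 genes passed, where 6.51% of all genes did, and with HSP70 2 of 69, where 8.61% of all genes did. Cd34, a sialomucin of the vessel wall that also marks blood progenitors, was lower in the hippocampus, at 25.2 ± 3.58 CPM against 47.6 ± 6.05 CPM in the cortex with YB-1 and at 24.8 ± 2.12 CPM against 53.1 ± 12.8 CPM with HSP70 (SD, n = 5 each). Its log2 fold changes were -0.92 ± 0.16 and -1.10 ± 0.16, with adjusted p of 0.000353 and 2.29e-05 by edgeR's quasi-likelihood test. Nr2f2, the transcription factor COUP-TFII of venous endothelium, which some neurons also express, was higher in the hippocampus with HSP70, by 1.11 ± 0.28 with an adjusted p of 0.0117, and did not pass with YB-1 (0.81 ± 0.29, 0.109). The other genes with the smallest p were Pgf, placental growth factor, at 0.84 ± 0.28 and Slc22a8, an anion transporter, at -0.43 ± 0.18 with YB-1, and Adgrl4, an adhesion receptor, at -0.59 ± 0.21 and Mcam, CD146, at 0.60 ± 0.24 with HSP70.

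Markers of other cell types were read in the same comparisons. Between tissues 3.21% of all genes passed as lower and 3.3% as higher with YB-1, and 3.76% and 4.85% with HSP70. Pericyte markers had medians of -0.37 with YB-1 and -0.19 with HSP70 over 11 genes, none of which passed, with sums of 248 to 347 and 274 to 412 CPM in the hippocampus, against 321 to 447 and 260 to 405 CPM in the cortex. Blood cell markers were negative in 7 of 7 tested genes with each treatment (medians -0.51 and -0.52), none of which passed, and Hba-a2 was at 0 in all hippocampal YB-1 libraries. Neuron markers were negative in 6 of 8 genes with YB-1 and 7 of 8 with HSP70 (medians -0.22 and -0.27), of which 1 and 2 passed as lower, Rbfox3 with both treatments and Snap25 with HSP70. Their sums were 5180 to 5860 and 4950 to 5750 CPM in the hippocampus, against 6250 to 7860 and 5610 to 6870 CPM in the cortex. Microglia markers were negative in 9 of 9 and 8 of 9 genes (median -0.16 each), none of which passed, with sums of 778 to 1510 and 745 to 1330 CPM in the hippocampus, against 1030 to 1890 and 958 to 1330 CPM in the cortex. Oligodendrocyte markers were higher in the hippocampus in 8 of 8, all of which passed (medians 1.11 and 1.5). Choroid plexus markers were positive in 9 of 9, of which 7 passed with YB-1 and 5 with HSP70 (medians 4.08 and 2.98), and their sum was 142 to 1060 and 41.5 to 1700 CPM in the hippocampus against 10.6 to 48.7 and 11.9 to 162 CPM in the cortex. Between treatments, fibroblast markers of the meninges and vessels were negative in 11 of 11 tested genes in the hippocampus (median -0.44, none passing), with sums of 171 to 193 CPM with YB-1 against 223 to 285 CPM with HSP70. In the cortex 4 of them were positive and 7 negative. Between tissues 3 of 12 fibroblast markers passed as lower and 1 as higher with YB-1 (median -0.23). With HSP70 0 passed as lower and 1 as higher (median 0.05). The part of these shifts in the endothelial values was not tested.

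Over the 20 libraries the 10 genes did not vary as a single block. After removal of group means, 31 of the 45 pairs of genes had a positive correlation of their log2 CPM, with a median r of 0.32, and 12 pairs were above 0.5. Libraries share depth and composition, and same-numbered ones of a treatment may share the animal. Cdh5, Pecam1, Tek and Flt1 had r from 0.63 for Cdh5 and Flt1 to 0.85 for Cdh5 and Pecam1. Within the hippocampus alone these 4 genes were at 0.68 to 0.96, and within the cortex alone at 0.35 to 0.81. In the cortex Flt1, Tek, Slco1a4 and Abcb1a lay closer together, at 0.64 to 0.88, where in the hippocampus they were at 0.19 to 0.68. Slco1a4 and Abcb1a followed each other at 0.79, with 0.64 in the hippocampus and 0.88 in the cortex alone. Ly6a and Ly6c1 were at 0.50 with each other, and at -0.37 to 0.17 with Cdh5, Pecam1, Tek and Flt1. Vwf was between these, at 0.57 with Ly6c1 and 0.39 with Ly6a, and at 0.66 with Pecam1, 0.47 with Cdh5, 0.36 with Flt1 and 0.34 with Tek. Cldn5 had negative r with Vwf, Pecam1, Cdh5, Tek, Flt1, Slco1a4 and Abcb1a, down to -0.54 for Flt1, and positive r with Ly6a (0.38) and Ly6c1 (0.32). Cdh5, Pecam1, Tek and Flt1 also followed marker means of other cell types, at 0.47 to 0.73 for astrocytes and 0.38 to 0.64 for microglia. For pericyte and neuron markers they were at 0.50 to 0.63 and 0.24 to 0.70. For oligodendrocyte and choroid plexus markers they were at -0.26 to 0.07 and -0.42 to -0.24. The part of other cell types was not tested.

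**Figure D4:**
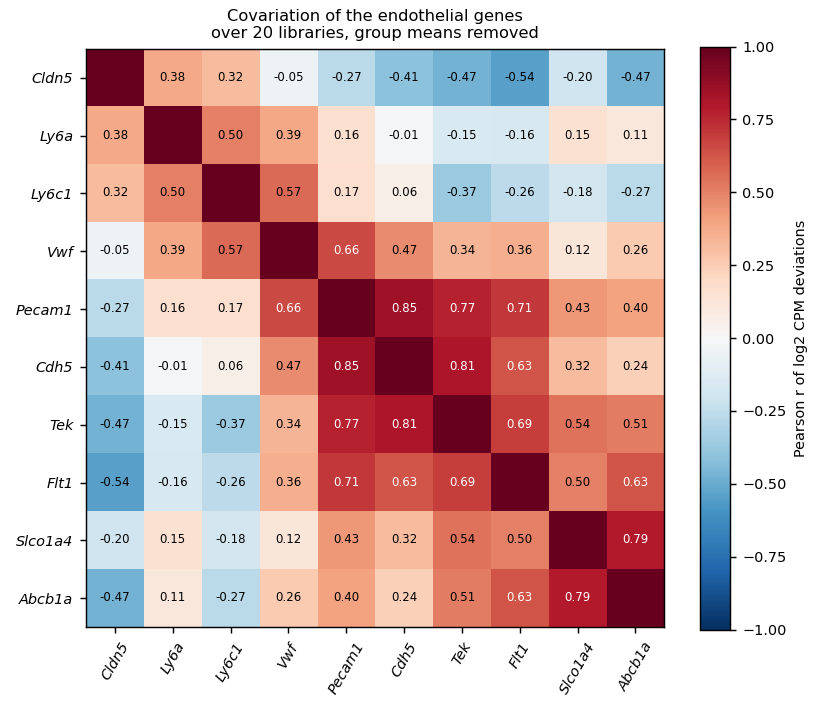
Pearson correlation of each pair of the 10 genes over 20 libraries, computed on log2 CPM after subtraction of the group mean. Red is positive and blue negative on a scale from -1 to 1, and the value is printed in each cell. Cdh5, Pecam1, Tek and Flt1 form a red square with values from 0.63 to 0.85, and the row of Cldn5 is blue toward 7 of the other 9 genes.

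The members were also set beside the length of the transcripts. The balance of long and short transcripts in a library was taken as the mean log2 CPM of 4513 genes with at least 6000 bases of exon minus that of 1627 genes with at most 2000. It lay between -0.08 and 0.61 in the hippocampus with YB-1, -0.30 and 0.64 in the hippocampus with HSP70, 0.03 and 0.64 in the cortex with YB-1 and 0.24 and 0.72 in the cortex with HSP70. The deviations of Cldn5, with 1416 bases, correlated with those of this balance at r = -0.78 over the 20 libraries, and those of Flt1, with 13504 bases, at 0.79. Tek (0.75), Abcb1a (0.68), Slco1a4 (0.59), Cdh5 (0.58) and Pecam1 (0.51), with 4203 to 6414 bases, were on the positive side over all libraries. Within the tissues Cdh5 was at 0.82 in the hippocampus and 0.12 in the cortex, and Pecam1 at 0.62 and 0.35. The short Ly6c1 (-0.50) and Ly6a (-0.32) were on the negative side. Vwf, the longest of the list with 16064 bases, was at 0.03. The median balance was 0.19 in the hippocampus and 0.29 in the cortex with HSP70, and 0.28 and 0.26 with YB-1. The part of this balance in the correlations between the genes, and in their differences between tissues and treatments, was not tested.

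**Figure D5:**
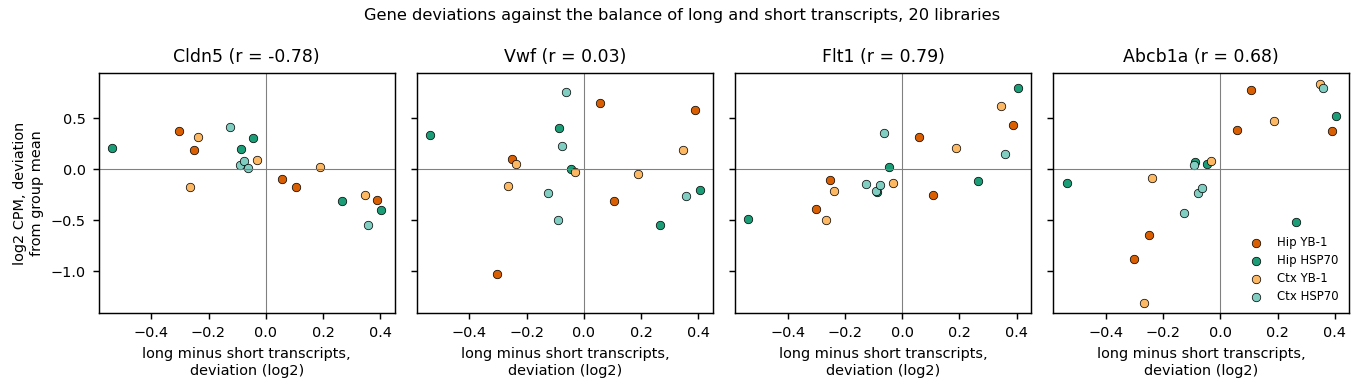
Deviations of Cldn5, Vwf, Flt1 and Abcb1a from their group means against the deviation of the long minus short transcript balance, both in log2 units, with 1 point per library. Colours give the group (Hip, hippocampus; Ctx, cortex). Cldn5 slopes down (r = -0.78), Flt1 (0.79) and Abcb1a (0.68) slope up, and Vwf is flat (0.03).

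Same-numbered libraries of the 2 tissues gave like values for some of the genes. Over the 10 such pairs, the deviations of the hippocampal and the cortical library correlated at r = 0.83 for Ly6c1, 0.79 for Ly6a, 0.75 for Abcb1a and 0.59 for Vwf, with a median of 0.24 over all tested genes. Cldn5 (0.47), Slco1a4 (0.36), Flt1 (0.25) and Tek (0.22) lay near or above that median. Pecam1 (-0.10) and Cdh5 (-0.63) lay below it. The genes outside the list whose deviations were most like the mean of the 10 were Igfbp5, Clic4 and P2ry13 (r = 0.88 each), Fn1 and Gm8909 (0.85 each), an immunoglobulin kappa variable gene and Mtus1 (0.83 each) and Nhlrc2 (0.82), over 20 libraries and 10621 genes searched. Fn1 encodes fibronectin of the extracellular matrix, Igfbp5 a binding protein of insulin-like growth factors, and P2ry13 a purine receptor of microglia.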

How the data were processed

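Poly(A) RNA of 20 libraries was sequenced from 1 end with a strand-specific kit, per the labels' protocols. The deposited values are raw read counts per gene, 1 table per library. Trimmomatic, STAR, featureCounts and the GRCm39 assembly are named in the submitters' processing notes; versions, annotation release and strand setting were not given in the sources used here. Neither library sizes nor tests include the 12 summary entries; unassigned reads were 2.45 to 4.58% of each library for no feature and 4.12 to 4.58% for ambiguous ones. Symbols matched 99.4% of gene IDs. No pair of libraries within a group agreed within sampling noise (lowest chi-square per degree of freedom 10.1 over 40 pairs).

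Counts were tested with edgeR 4.0.16 (R 4.3.3; TMM scaling, filterByExpr, robust quasi-likelihood fits, Benjamini-Hochberg adjustment over all genes tested, threshold 0.05), between treatments within each tissue, and between tissues and for the interaction in a model of 4 groups. Tests were two-sided and were checked on simulated data. SE is the log2 fold change divided by the square root of F, and 95% intervals are 1.96 SE on each side. Correlations used log2 CPM with a prior count of 2, minus group means. Exon lengths come from GENCODE M21. DESeq2 1.42.0, limma 3.58.1, other scalings, no filter, thinning to 6414215 reads, a replicate block and leaving out libraries were alternatives. Leaving out replicate numbers from the block was chosen after seeing the data. Same-numbered hippocampal and cortical libraries correlated in every pair (r 0.198 to 0.624 over 14616 genes), so the replicate number was taken to pair the tissues, though hippocampal YB-1 replicate 1 did not correlate best with its own number and the labels do not say that it marks an animal. Same-numbered YB-1 and HSP70 libraries were at r -0.283 to 0.496 in the hippocampus and -0.135 to 0.167 in the cortex, and were not taken as pairs. The 0.496 belonged to replicate 1, above most of the r values between tissues. Whether same-numbered libraries agree for a reason other than a shared animal was not tested.

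The members and lists were chosen with earlier results of these data known. Named genes are the 10 members, the 4 other endothelial genes with the smallest p per comparison, and counts for other lists; 1 gene that the likeness to Ly6a would name is not reported here. P-values measure the spread between these libraries.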

Additional observations from a re-analysis of the deposited data

Results flagged for a closer look

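In 40 sets of 5 libraries (10 genes in 4 groups), 2 held a library that stood apart by Dixon's criterion (critical value 0.71), which chance exceeds in about 1 in 20 sets. Tek was at 2.55 CPM in replicate 5 of the hippocampus with HSP70, where the other libraries of the group held 7.31 to 8.70 CPM. Abcb1a was at 13.4 CPM in replicate 1 of the cortex with HSP70, where the others held 5.62 to 7.86 CPM. Of all libraries, the former had the lowest balance of long and short transcripts (-0.30) and the fewest genes with a read (16889). The latter had the highest balance (0.72). The part of this balance in the 2 values was not tested.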

How the results depend on the processing

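Over the other settings, 425 of 440 values for single genes kept their direction and their side of the threshold, as did 755 of 800 with 1 library left out. With the replicate block and 1 replicate number left out, 88 of 100 did, while 3 turned in direction and 9 newly passed. In the cortex, the number of genes called between treatments was 9 without a filter (6 higher, 3 lower; 1 of them a listed gene, Vwf, at 0.75), 4 by DESeq2 (3 higher, 1 lower), 1 by limma-voom (1 higher), 1 after thinning (1 higher) and 0 to 1 with a library left out, all 0 to 1 higher. With the replicate block 880 genes were lower in the hippocampus with HSP70, against 550 without it, and 2 listed genes, Ly6a at -0.50 and Flt1 at -0.64. With 1 replicate number left out of the block, 1 to 2 listed genes passed as lower with HSP70. With YB-1 it was 0 to 1 (Vwf at -0.61 without replicate number 1). Without the block, leaving out 1 library gave 0 to 1. With all replicate numbers the block changed no other call on a listed gene, but without replicate number 4 Slco1a4 passed with HSP70, at -0.80.

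Directions turned for values near 0, and the cause was not tested. Between treatments these were hippocampal Abcb1a (-0.040 thinned, -0.030 with the block), cortical Flt1 (-0.022 without a filter, -0.0047 thinned, -0.034 with the block) and cortical Abcb1a (0.14 by limma-voom). Between tissues they were Vwf with HSP70 and Cldn5 with YB-1. Vwf was at 0.017 with library totals, 0.0031 with the block, and 0.012 and 0.11 with the block and without replicate numbers 2 and 5. Cldn5 was at 0.017 with the block and without replicate number 1. For the interaction it was Pecam1 (-0.028 with library totals, -6.9e-05 by DESeq2, -0.16 thinned, -0.016 with the block).

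With 1 library left out, ranges that crossed 0 were, in the hippocampus between treatments, Slco1a4 -0.068 to 0.28, Tek -0.035 to 0.36 and Abcb1a -0.17 to 0.23, and in the cortex Cldn5 -0.21 to 0.028, Flt1 -0.18 to 0.11, Tek -0.10 to 0.20 and Abcb1a -0.32 to 0.18. Between tissues they were Cldn5 with YB-1 -0.17 to 0.023 and Vwf with HSP70 -0.15 to 0.21. For the interaction they were Cdh5 -0.017 to 0.29, Ly6a -0.038 to 0.26, Ly6c1 -0.19 to 0.25, Pecam1 -0.13 to 0.14, Tek -0.11 to 0.28 and Abcb1a -0.12 to 0.38. The lowest read numbers in a library were 14 for Abcb1a and 17 for Tek, and their part in these ranges was not tested.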
